A study of Homo sapiens and Mus musculus with 24 samples.

Results

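The 10 genes described here control the step at which a resting cell commits to a new division. They are 6 inhibitors of cyclin-dependent kinases (CDKN1A, CDKN1B, CDKN1C, CDKN2A, CDKN2B and CDKN2C), the 3 D cyclins (CCND1, CCND2 and CCND3) and the unconventional cyclin G2 (CCNG2). They were chosen by symbol for what they encode, with earlier results of these data known. Counts of members set against all genes therefore do not describe a set chosen blind. Each gene's level is the sum of the estimated read pairs over all rows that carry its symbol, out of 56981 symbols in all. The study measured RNA from MCF10A, a non-tumorigenic human mammary epithelial cell line, in a parental line with wild-type PIK3CA and in an isogenic commercial line, called KI, that is heterozygous for the PIK3CA H1047R mutation. PIK3CA encodes the p110-alpha catalytic subunit of PI3K, and H1047R is an activating hotspot mutation. Each line received either DMSO, the vehicle, or 1 µM BYL719 (alpelisib), which inhibits PI3K-alpha, and the labels give 4 hours for every library, so the 4 groups were parental DMSO, parental BYL719, KI DMSO and KI BYL719 with 3 libraries in each. The labels do not say how many clones the KI line holds, nor that the replicates were separate cultures, so the p-values measure the spread between these libraries, which may be technical.

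The libraries held 120177015 to 162755457 estimated read pairs, and levels are given as CPM, the read count scaled by the library total. Of 6 epithelial and 6 basal mammary markers, all had at least 1 CPM in every group, with summed levels of 882.5 to 1147 CPM and 6412 to 7595 CPM. Within these lists single genes differed between the lines: in KI DMSO against parental DMSO 4 of the 6 epithelial markers were lower and 1 higher, and the same counts held for the basal ones. CLDN4 had group means of 39.59 CPM in parental DMSO and 7.923 CPM in KI DMSO, GRHL2 98.17 and 31.81, CDH1 240.7 and 109.7, TP63 78.81 and 27.69, and KRT14, which was higher in KI, 52.03 and 263.2. TP63 also rose under BYL719 in both lines, by a log2 of 0.43 in parental and 1.09 in KI. The basal list did not share a direction under BYL719 in KI. There 3 of its genes rose, TP63, ITGB4 (0.47) and LAMB3 (0.30), and 2 fell, KRT14 (-0.33) and KRT5 (-0.19). The 5 luminal mammary markers summed to 21.03 to 28.14 CPM, and 4 of them could be tested. Of these 4, ESR1 and GATA3 were lower in KI than in parental and 0 were higher. The log2 differences were -1.12 and -0.41 in DMSO, and -0.57 and -0.45 under BYL719. The part of these differences in those of the cell cycle genes was not tested. Of markers of other cell types, the fibroblast list summed to 17.83 to 29.66 CPM, most of it COL1A1 (17.22 to 26.06 CPM), and the haematopoietic list to 3.154 to 5.918 CPM, nearly all of it CD14, with HBB at 0 in every library. The endothelial, adipocyte and muscle lists summed to at most 0.9021, 0.2309 and 1.381 CPM. KI DMSO replicate 2 stood apart from its group: on the second principal component, which held 23.6% of the variance, it lay at 28.68 where the other two KI DMSO libraries lay at 5.12 and 7.74. Counts that change by over 1.5 times without it are given with that value. In bulk RNA, a change in every cell and a change in the share of cells that express a gene cannot be told apart.

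D cyclins bind CDK4 or CDK6 and start the phosphorylation of the retinoblastoma protein, which releases E2F factors and S phase genes. The INK4 inhibitors, among them CDKN2A, CDKN2B and CDKN2C, bind CDK4 and CDK6 themselves, whereas the CIP/KIP inhibitors CDKN1A (p21), CDKN1B (p27) and CDKN1C (p57) bind cyclin and kinase complexes and restrain CDK2. PI3K signalling through AKT keeps FOXO factors out of the nucleus, and CDKN1B and CCNG2 are textbook FOXO target genes, while CCND1 is a textbook target of growth factor and ERK signalling.

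On GRCh38 (GENCODE annotation), CDKN1A lies on chromosome 6 from 36676460 to 36687339, CDKN1B on chromosome 12 from 12715058 to 12722371 and CDKN1C on chromosome 11 from 2883213 to 2885773. CDKN2A, from 21967753 to 21995301, and CDKN2B, from 22002903 to 22009363, are neighbours on chromosome 9, and CDKN2C lies on chromosome 1 from 50960745 to 50974633. CCND1 lies on chromosome 11 from 69641087 to 69654474, CCND2 on chromosome 12 from 4273772 to 4305350 and CCND3 on chromosome 6 from 41934933 to 42050357. CCNG2 lies on chromosome 4 from 77157151 to 77433388. All 10 are annotated as protein-coding, and the counts pool the exons of all their transcripts. On the opposite strand CCND1 shares exons with LTO1 (15.5 to 20.8 CPM), and CDKN1A with DINOL (0.0954 to 0.288 CPM). A strand setting for the counting was not found in the sources used here, so some reads of these pairs may not be separable.

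The sequences upstream of CCNG2 and CDKN1B are shown because these were the 2 members whose RNA rose under BYL719 in KI. RefSeq promoter windows of 300 bases (GRCh38.p14), 250 before and 50 after the start, matched 7 of the 10 members with 12 windows, and CDKN1C, CCND1 and CCND2 had no entry. The stretches below run 5′ to 3′ along the gene's strand and end at the base before the start, chr4:77156957-77157206 (+) for CCNG2 and chr12:12717118-12717367 (+) for CDKN1B. Capitals mark the GC box GGGCGG on either strand, written CCGCCC on the other, and the palindromic E-box CACGTG, none of which overlap.
CCNG2: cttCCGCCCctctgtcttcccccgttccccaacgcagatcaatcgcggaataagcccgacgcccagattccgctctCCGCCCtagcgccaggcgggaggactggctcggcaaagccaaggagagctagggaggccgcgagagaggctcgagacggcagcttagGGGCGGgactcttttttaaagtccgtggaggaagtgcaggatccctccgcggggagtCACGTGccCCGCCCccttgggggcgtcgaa
CDKN1B: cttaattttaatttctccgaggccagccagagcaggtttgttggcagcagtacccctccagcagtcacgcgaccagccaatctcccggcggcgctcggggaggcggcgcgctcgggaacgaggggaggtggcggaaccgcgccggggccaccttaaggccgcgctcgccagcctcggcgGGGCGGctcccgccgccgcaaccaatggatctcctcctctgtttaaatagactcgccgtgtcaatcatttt
The CCNG2 window held 4 GC boxes, starting 247, 174, 87 and 22 bases before the start, and an E-box starting 30 bases before it. The CDKN1B window held 1 GC box, 71 bases before the start, and no E-box. Among all 35116 windows, 45% held a GC box and 7.26% the E-box. The FOXO core GTAAACA, searched on both strands, is in 3.42% of all windows. Its letters are in neither of the 2 windows above, and among the members' 12 windows they occur in 1 window of CCND3, shown here over 29 bases (chr6:42048673-42048701, minus strand) with the core in capitals, where it begins 2 bases before the start.
CCND3: gcgcggactttGTAAACActtcgccactg
The AP-1 motif TGACTCA, the CRE TGACGTCA and the E2F forms TTTCCCGC and TTTGGCGC had no match on either strand in the members' windows, against 4.95%, 1.85%, 1.63% and 0.652% of all windows.

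Of the members 8 passed the filter on low counts and could be tested, and CDKN2A and CDKN2B did not. Per length, as TPM, which scales reads by transcript length and library, CDKN1A was the most abundant member in all 4 groups, at 156.6 ± 2.3 TPM in parental DMSO and 281.4 ± 23.2 TPM in KI DMSO (mean ± SD, n = 3). In parental DMSO it was followed by CCND3 at 79.0 TPM, CDKN1B at 46.3 TPM and CCNG2 at 43.9 TPM, which overlapped between libraries, CCND1 at 37.0 TPM, and CDKN2C at 30.8 TPM and CDKN1C at 29.2 TPM, which also overlapped. In KI DMSO, CDKN1C at 90.1 TPM stood beside CCND3 at 90.1 TPM with overlapping libraries, CCND1 followed at 64.8 TPM, and CCNG2 was the lowest of the 7 well-measured members at 26.7 TPM. Under BYL719 CCNG2 ranked next after CDKN1A and CCND3 in both lines, at 59.3 TPM in parental and 71.99 TPM in KI, where its libraries overlapped those of CCND3 at 75.6 TPM. CCND2 was at most 0.0703 TPM on average in any group.

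**Figure D1:**
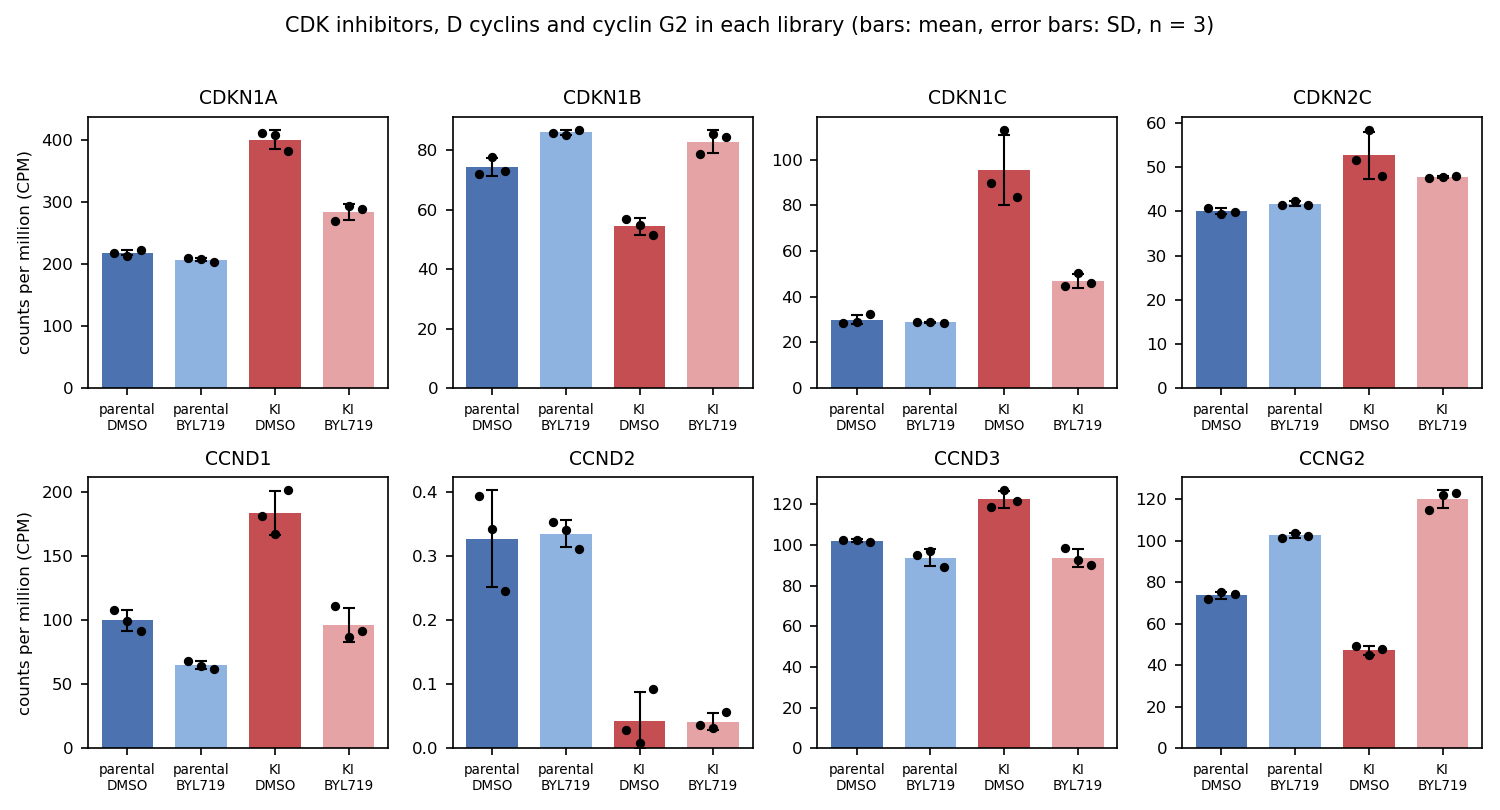
Level in CPM (vertical axis, from 0, own scale in each panel) of the 8 members with enough reads to test, in the 4 groups; bars are means, error bars SD, and points the 3 libraries of each group. CDKN1C lies between 28.5 and 32.3 CPM in the parental DMSO libraries and between 83.8 and 113 CPM in KI DMSO, and CCNG2 is lowest in KI DMSO and highest in KI BYL719.

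The first comparison asked how the mutant line differed from the parental line without inhibitor. All 8 tested members differed in edgeR's quasi-likelihood test with Benjamini-Hochberg adjustment over all 21055 genes tested, the test behind every adjusted p given here, at an adjusted p under 0.05. That threshold was passed by 34.3% of all genes tested. CDKN1A, CDKN1C, CDKN2C, CCND1 and CCND3 were higher in KI, against 17% of all genes, and CDKN1B, CCND2 and CCNG2 were lower, against 17.3%. The libraries of the 2 groups did not overlap for any of the 8, which held for 45.8% of all genes tested. Among the 8, CCND2 passed the low-count filter only through the parental groups, where it is high. Without it 7 of 7 members passed, and their median absolute log2 difference was 0.62, against 0.23 over all genes tested.

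Among the CIP/KIP inhibitors, CDKN1C, an imprinted gene that slows proliferation in development, had 28.5, 28.98 and 32.3 CPM in parental DMSO and 89.8, 113 and 83.8 CPM in KI DMSO. Every KI library was well above every parental one, a log2 difference of 1.71 ± 0.11 (SE) or 3.26-fold (adjusted p = 1.375e-07). CDKN1A, the p53-responsive inhibitor, had 218, 214 and 223 CPM in parental DMSO and 411, 408 and 383 CPM in KI DMSO. This was a log2 difference of 0.90 ± 0.05, or 1.87-fold (adjusted p = 3.841e-08). CDKN1B went the other way, with 72.1, 77.7 and 72.9 CPM in parental DMSO and 56.9, 54.96 and 51.3 CPM in KI DMSO. Its log2 difference was -0.42 ± 0.05 (adjusted p = 5.763e-05), so the 3 genes of this family did not share a direction.

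CDKN2C, the INK4 inhibitor p18, had 40.9, 39.5 and 39.9 CPM in parental DMSO and 51.6, 58.5 and 48.0 CPM in KI DMSO, the highest of these being replicate 2. The log2 difference was 0.42 ± 0.07 (adjusted p = 0.0003982), and 0.33 without KI DMSO replicate 2. Of the D cyclins, CCND1 had 108, 99.7 and 91.9 CPM in parental DMSO and 181, 167 and 201 CPM in KI DMSO. Its log2 difference of 0.90 ± 0.09, or 1.87-fold (adjusted p = 1.258e-05), was of the same size as that of CDKN1A. CCND3 had 103, 102 and 101 CPM in parental DMSO and 119, 127 and 122 CPM in KI DMSO, a smaller log2 difference of 0.29 ± 0.05 (adjusted p = 0.0009032). CCNG2, which is linked to cell cycle arrest and not to kinase activation, had 71.8, 75.1 and 74.5 CPM in parental DMSO and 49.0, 44.8 and 47.6 CPM in KI DMSO. It was lower by 1.54-fold in KI (log2 -0.62 ± 0.04, adjusted p = 3.794e-07), the larger of the well-measured decreases.

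The second comparison asked what BYL719 did in cells with wild-type PIK3CA. There 2 of the 8 members passed the test, against 1.42% of all genes tested, with 0.831% higher and 0.589% lower. Libraries of the 2 groups did not overlap for 6 of the 8 members, against 31.5% of all genes. CCNG2 rose to 101, 104 and 102 CPM from the parental DMSO levels above, with no overlap between the groups. The log2 difference was 0.47 ± 0.04, or 1.38-fold (adjusted p = 0.0002091). CCND1 fell to 68.4, 64.5 and 61.9 CPM, again without overlap, a log2 difference of -0.63 ± 0.09 (adjusted p = 0.006323). The CCND1 call was lost when replicate 1 of parental DMSO, or replicate 3 of parental BYL719, was left out (log2 -0.58, adjusted p = 0.0525, and -0.59, adjusted p = 0.0544).

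CDKN1B had 86.0, 85.2 and 86.9 CPM in parental BYL719, above all 3 parental DMSO libraries, with a log2 difference of 0.21 (95% confidence interval 0.09 to 0.32) that missed the threshold (adjusted p = 0.08057). CCND3 had 94.99, 97.2 and 89.2 CPM, below all parental DMSO libraries (log2 -0.13, adjusted p = 0.3364). CDKN1A had 209, 208 and 204 CPM (log2 -0.08, interval -0.19 to 0.02), CDKN1C 28.8, 28.8 and 28.6 CPM (log2 -0.06, interval -0.29 to 0.17) and CDKN2C 41.4, 42.5 and 41.4 CPM (log2 0.05, interval -0.09 to 0.20). These 3 inhibitors showed no difference that passed the test. This comparison depended on the KI libraries, which enter the shared estimate of the spread: without KI DMSO replicate 2, 1973 genes and 4 members passed in place of 299 and 2, with CDKN1B (0.20, adjusted p = 0.004775) and CCND3 (-0.13, adjusted p = 0.0454) added. When the parental libraries alone were fitted, 3486 genes and 5 members passed, CDKN1A (-0.08, adjusted p = 0.03542) being the fifth.

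In KI the inhibitor changed 6 of the 8 members, against 28.3% of all genes tested. CCNG2 and CDKN1B rose, against 15.1% of all genes, and CDKN1A, CDKN1C, CCND1 and CCND3 fell, against 13.2%. The libraries of the 2 groups did not overlap for these 6, which held for 38.2% of all genes. Every one of these 6 moved opposite to its difference between KI and parental in DMSO; the 2 comparisons share the KI DMSO libraries, so this is given as values side by side and not as a test.

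CCNG2 rose from 49.0, 44.8 and 47.6 CPM to 115, 122 and 123 CPM. All 3 treated libraries exceeded every other MCF10A library, those of parental BYL719 included, and the log2 difference was 1.34 ± 0.04 or 2.54-fold (adjusted p = 5.541e-09). CDKN1B rose from 56.9, 54.96 and 51.3 CPM to 78.6, 85.5 and 84.6 CPM. The difference was 0.60 ± 0.05 on the log2 scale, or 1.52-fold (adjusted p = 6.664e-06), and the treated libraries lay within the 72.1 to 86.9 CPM spanned by the 6 parental ones.

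CDKN1C fell from 89.8, 113 and 83.8 CPM to 44.5, 50.3 and 45.9 CPM, a log2 difference of -1.04 ± 0.10 or 2.05-fold (adjusted p = 2.068e-05). The treated libraries stayed above all 6 parental ones. CDKN1A fell from 411, 408 and 383 CPM to 269, 294 and 289 CPM (log2 -0.50 ± 0.05, adjusted p = 1.464e-05) and likewise stayed above the parental libraries. CCND1 fell from 181, 167 and 201 CPM to 111, 86.6 and 91.3 CPM. With a log2 difference of -0.93 ± 0.09 or 1.91-fold (adjusted p = 2.106e-05), it overlapped the parental DMSO libraries (91.9 to 108 CPM) and stayed above all those of parental BYL719. CCND3 fell from 119, 127 and 122 CPM to 98.5, 92.4 and 90.0 CPM (log2 -0.39 ± 0.05, adjusted p = 0.0001527). CDKN2C, with 47.6, 47.8 and 48.1 CPM under BYL719, did not pass (log2 -0.15, interval -0.29 to 0.00, adjusted p = 0.1264), but passed without KI DMSO replicate 3 (-0.22, adjusted p = 0.02051).

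**Figure D2:**
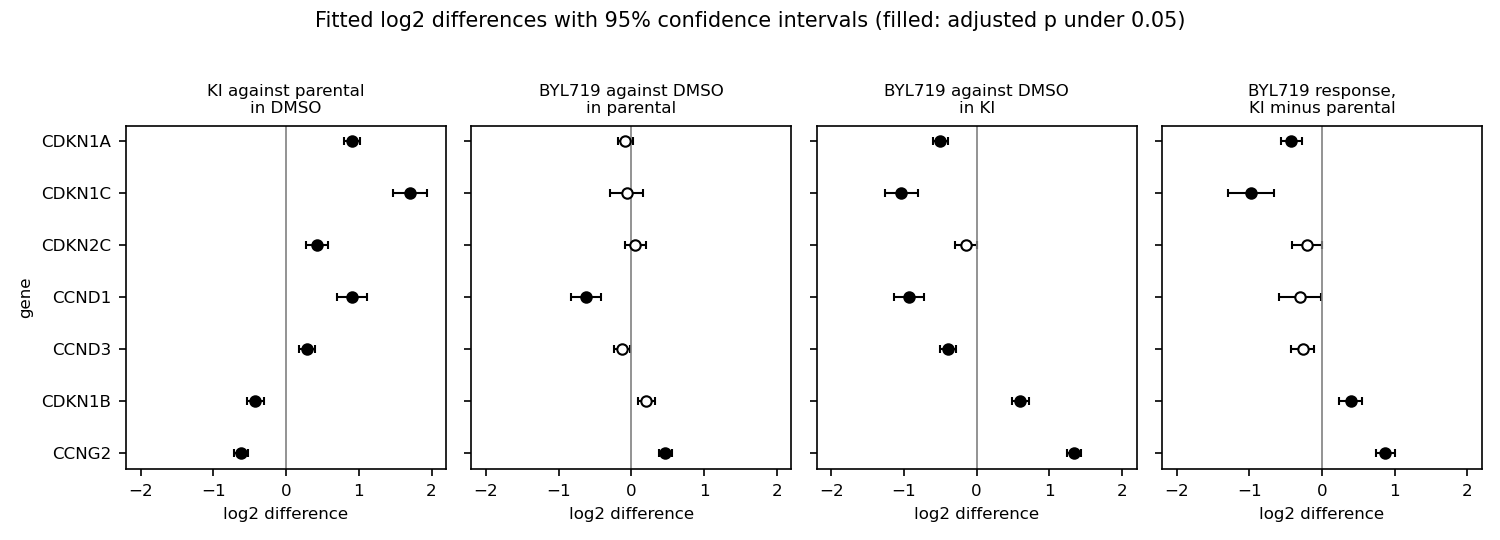
Fitted log2 differences (horizontal axis) of the 7 well-measured members in 4 comparisons, each with its 95% confidence interval; filled points passed an adjusted p under 0.05. CCNG2 goes from -0.62 in KI against parental to 1.34 under BYL719 in KI, and CDKN1C from 1.71 to -1.04, while CDKN1C lies at -0.06 under BYL719 in parental cells.

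The difference of the 2 responses was tested directly as an interaction term. It passed for 4 of the 8 members, against 2.88% of all genes tested. CCNG2 rose more in KI than in parental by 0.87 ± 0.06 (log2; adjusted p = 2.183e-05) and CDKN1B by 0.39 ± 0.07 (adjusted p = 0.01439), against 2.09% of all genes on that side. CDKN1C fell more in KI, with a difference of -0.97 ± 0.15 (adjusted p = 0.004357), and so did CDKN1A, with -0.42 ± 0.07 (adjusted p = 0.006798), against 0.798% of all genes. The CDKN1B call was lost without replicate 2 or 3 of parental DMSO, 1 or 2 of parental BYL719, or 3 of KI BYL719, fits which gave log2 values of 0.36 to 0.40 and adjusted p-values of 0.05043 to 0.0571.

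For CCND1 the responses of -0.63 and -0.93 were not told apart by the test (difference -0.30, interval -0.59 to -0.02, adjusted p = 0.271), although it passed without KI BYL719 replicate 1 (-0.45, adjusted p = 0.03755). For CCND3 the difference was -0.27 (interval -0.43 to -0.11, adjusted p = 0.08084), and it passed with DESeq2 (-0.28, adjusted p = 0.01888), without KI DMSO replicate 2 (-0.24, adjusted p = 0.01924) and without KI BYL719 replicate 1 (-0.34, adjusted p = 0.03492). Among all genes, 72.3% of the 607 calls of this difference were higher in KI, a share that was 56.9% of 1428 with DESeq2. Without KI DMSO replicate 2, 1874 genes passed, of which 53.8% were higher in KI.

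With the inhibitor present in both lines, 6 of the 8 members still differed between KI and parental, against 22.4% of all genes tested, and the libraries of the same number of members did not overlap, 6 of 8 against 46.1% of all genes. Without CCND2, 5 of 7 passed. Without KI DMSO replicate 2, 7439 genes passed in place of 4710. CDKN1C (log2 0.73 ± 0.10, adjusted p = 0.000217), CCND1 (0.60 ± 0.09, adjusted p = 0.0004615) and CDKN1A (0.48 ± 0.05, adjusted p = 1.038e-05) remained higher in KI, each with a smaller value than in DMSO. CCNG2, which was lower in KI in DMSO, was higher in KI under BYL719, by 0.25 ± 0.04 (adjusted p = 0.0007949). CDKN2C was higher by 0.22 ± 0.07 (adjusted p = 0.032), a call lost without filtering of low counts (adjusted p = 0.05993) and without parental DMSO replicate 1 or any 1 of the 6 BYL719 libraries (adjusted p = 0.07202 to 0.1115). CDKN1B (-0.03, interval -0.14 to 0.09) and CCND3 (0.02, interval -0.09 to 0.14) did not pass, and the libraries of the 2 lines overlapped for both.

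CCND2 was at the edge of detection. It had 0.394, 0.342 and 0.245 CPM in parental DMSO and 0.353, 0.341 and 0.311 CPM in parental BYL719, from 30.1 to 64.1 reads per library. In KI it had 0.029, 0.008 and 0.092 CPM in DMSO and 0.037, 0.031 and 0.056 CPM with BYL719, from 1.01 to 12 reads. All 6 KI libraries were below all 6 parental ones, and the fitted log2 difference was -2.89 ± 0.47 in DMSO (adjusted p = 0.0004775) and -2.97 ± 0.47 under BYL719 (adjusted p = 0.0005056). The gene passed the filter on low counts through the parental groups alone, so its being tested already depended on their higher level. BYL719 gave no difference that passed in either line (0.03 and -0.05), at wide intervals of -0.78 to 0.84 and -1.36 to 1.26.

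The split of reads between CCND2 and AC008012.1, a gene on the same strand that shares exons with it, is uncertain. AC008012.1 had 1.11, 1.10 and 0.78 CPM in parental DMSO, 1.06, 0.967 and 1.10 CPM in parental BYL719, 0.205, 0.834 and 0 CPM in KI DMSO, and 0, 0.143 and 0 CPM in KI BYL719. Summed with CCND2, the levels were 1.03 to 1.504 CPM in the parental libraries and 0.037 to 0.842 CPM in KI, the highest KI value being replicate 2 in DMSO. The summed gene was still lower in KI, by a log2 difference of -1.73 in DMSO (adjusted p = 0.0264) and -3.92 under BYL719 (adjusted p = 0.0007803), in a fit added after the values were seen. The summed gene also passed as lower under BYL719 in KI (-2.14, adjusted p = 0.04054), a call that rested on KI DMSO replicate 2: without that library the value was -0.90 (adjusted p = 0.2649), while the differences between the lines were -2.99 in DMSO (adjusted p = 0.000208) and -3.93 under BYL719 (adjusted p = 1.725e-05).

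CDKN2A, which encodes p16 and ARF, and CDKN2B, which encodes p15, were close to absent. CDKN2A had 15 reads over all 12 libraries, with 0 in 4 of them and at most 4 in any. CDKN2B had 5 reads in all, 4 of them in KI BYL719 replicate 3 and 1 in parental DMSO replicate 2, with 0 in the other 10 libraries. A count of 0 allows up to 3 reads, which is 0.0184 to 0.025 CPM depending on the library and covers counting error only. No group difference could be measured for either gene. As background, MCF10A cells are known to lack the CDKN2A locus on both copies of chromosome 9; DNA was not analysed here.

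MTAP, the next gene before CDKN2A and a housekeeping enzyme of methionine salvage, had 0.168 to 0.511 CPM, and the antisense RNA CDKN2B-AS1 had 0.017 to 0.087 CPM. Further out on the MTAP side, KLHL9 had 15.4 to 21.8 CPM and FOCAD 27.9 to 41.9 CPM, whereas the interferon genes IFNB1 and IFNA1 between FOCAD and MTAP had no reads or at most 0.0231 CPM. On the other side, DMRTA1 had 1.14 to 1.65 CPM and ELAVL2 17.2 to 26.6 CPM. The low levels from MTAP to CDKN2B were measured in both lines, and MTAP had a log2 difference of -0.04 between them in DMSO (adjusted p = 0.9354). Low levels were not confined to that stretch. On the MTAP side HACD4 had 0.051 to 0.168 CPM and IFNE 0.054 to 0.220 CPM, and on the other side LINC01239 had 0.188 to 0.5175 CPM.

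**Figure D3:**
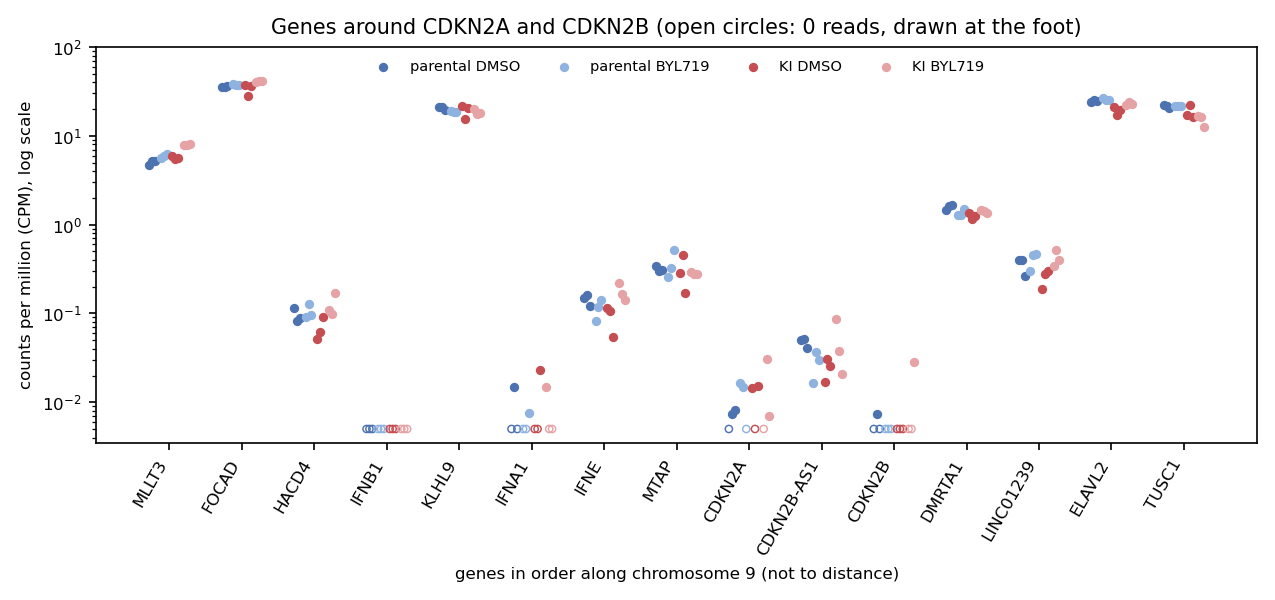
Level in CPM (vertical log axis) of 15 genes in their order along chromosome 9, each point a library coloured by group; open circles at the foot are libraries with 0 reads. FOCAD, KLHL9, ELAVL2 and TUSC1 lie above 10 CPM in every library, while MTAP stays at or below 0.511 CPM and CDKN2A and CDKN2B at or below 0.0305 CPM.

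D cyclin RNA was mostly CCND3 in every group when counted per length. The summed TPM of the 3 D cyclins was 116.1 ± 4.0 in parental DMSO, 97.8 ± 5.5 in parental BYL719, 154.9 ± 17.7 in KI DMSO and 111.3 ± 10.5 in KI BYL719 (mean ± SD, n = 3). CCND1 made up 31.8% ± 1.5 of it in parental DMSO and 41.5% ± 4.0 in KI DMSO, where the libraries had 42.6%, 37.1% and 44.9%. Under BYL719 its share was 24.7% ± 0.9 in parental and 31.9% ± 2.1 in KI. CCND3 made up nearly all of the remainder, from 58.5% in KI DMSO to 75.2% in parental BYL719, and CCND2 at most 0.0718%. These shares are given without a test.

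**Figure D4:**
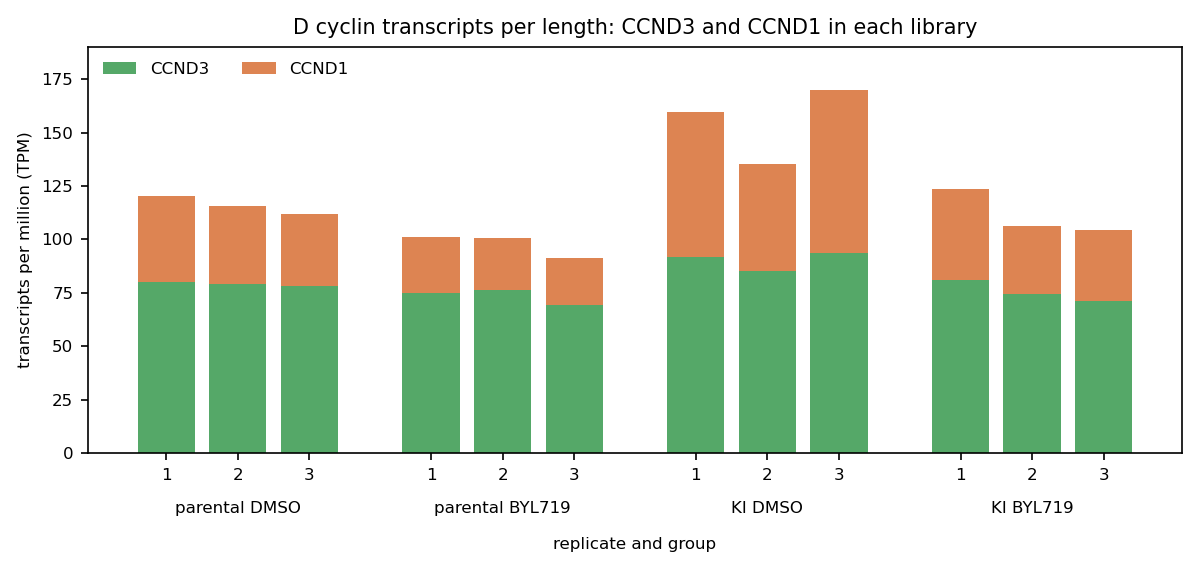
TPM of CCND3 and CCND1, stacked (vertical axis, from 0), in each of the 12 libraries; CCND2 is too low to be drawn. The summed level lies between 135 and 170 TPM in KI DMSO and between 91.5 and 124 TPM in all other groups, and most of that difference is in the CCND1 part.

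The transcripts behind these sums kept the same leading form in every group. CDKN1B-201 held 98.8% to 99.3% of CDKN1B, CDKN1A-201 held 85.1% to 86.8% of CDKN1A, CDKN1C-204 held 82.1% to 86.6% of CDKN1C and CCND1-201 held 84.3% to 88.3% of CCND1, as group means of the TPM share. CCND3-203 was 77.0% ± 1.0 of CCND3 in parental DMSO and 71.9% ± 1.3 under BYL719, and 81.4% ± 1.4 in KI DMSO and 70.3% ± 1.0 under BYL719, so its share was lower with the inhibitor in both lines and the libraries did not overlap. CDKN2C-203 was 83.8% ± 1.5 of CDKN2C in KI DMSO and 74.1% ± 3.7 in KI BYL719, while the shorter CDKN2C-202 was 15.4% ± 1.4 and 24.7% ± 3.6. CCNG2-204 was 58.0% ± 2.5, 57.5% ± 0.2, 50.1% ± 7.5 and 59.2% ± 1.5 of CCNG2 in parental DMSO, parental BYL719, KI DMSO and KI BYL719, the wide KI DMSO spread reaching down to 41.5%. The files hold no error for the assignment of reads to transcripts, and these shares were not tested.

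CDKN1C lies in an imprinted cluster, and 7 of its neighbours were listed for comparison. In KI against parental in DMSO, 4 of the 7 were higher and none lower (57.1%, against 34.3% of all genes called), with a median log2 difference of 0.73 against 0.00 over all genes tested. KCNQ1, a potassium channel gene, had 0.129, 0.111 and 0.0815 CPM in parental DMSO and 0.466, 0.374 and 0.416 CPM in KI DMSO (log2 1.97 ± 0.23, adjusted p = 3.181e-05). SLC22A18AS (1.205), PHLDA2 (0.87), a growth-restraining placental gene, and SLC22A18 (0.73) were the others that were higher, while KCNQ1OT1 (0.02), CARS and NAP1L4 did not pass. Under BYL719 in KI these 4 fell (57.1%, against 28.3%), KCNQ1 by 1.83, PHLDA2 by 1.35, SLC22A18AS by 0.65 and SLC22A18 by 0.35 on the log2 scale, the last 2 calls being lost in 5 and 14 of 19 alternatives. None of the 7 passed in parental cells. PHLDA2 had 23.0, 23.0 and 20.6 CPM in parental BYL719, below the 41.2, 34.4 and 36.2 CPM of parental DMSO (log2 -0.75, adjusted p = 0.05397). The interaction passed for KCNQ1 alone (-2.17 ± 0.34, adjusted p = 0.005033), a call lost with effective-length offsets (-2.08, adjusted p = 0.1163). SLC22A18 and SLC22A18AS overlap on opposite strands, and a strand setting for the counting was not found in the sources used here, so their reads may not be separable. KCNQ1OT1, at 16.35 to 33.97 CPM, likewise lies within the span of KCNQ1 on the opposite strand. Whether reads of KCNQ1OT1 entered the low KCNQ1 counts was not tested.

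**Figure D5:**
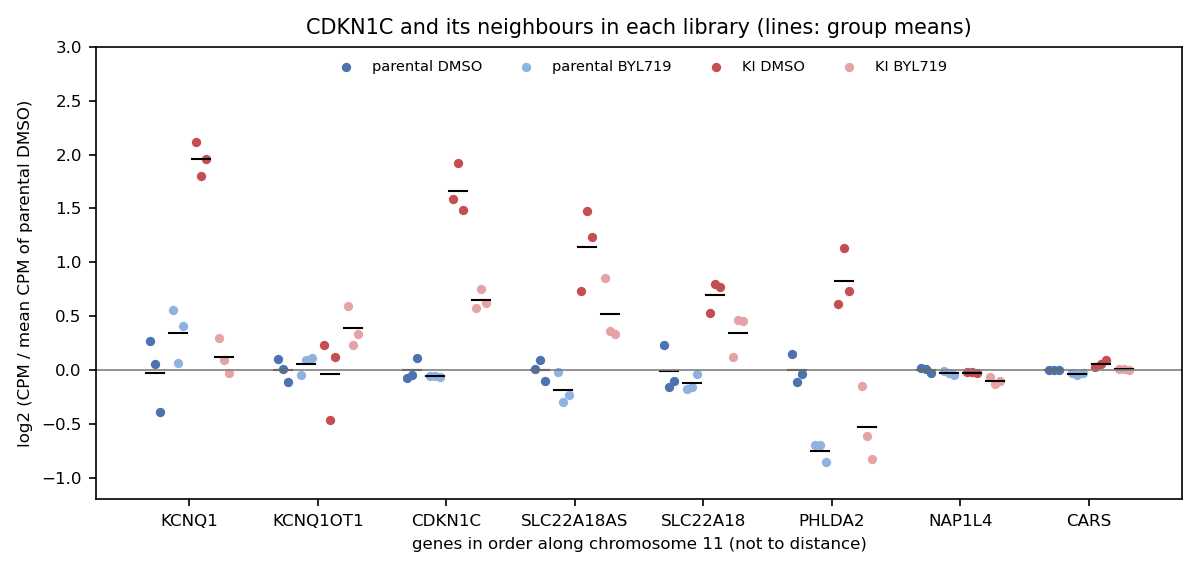
Log2 of each library's CPM over the mean of parental DMSO (vertical axis) for CDKN1C and its 7 listed neighbours in their order along chromosome 11; points are libraries and short lines group means. KCNQ1, CDKN1C, SLC22A18AS, SLC22A18 and PHLDA2 lie above 0 in all 3 KI DMSO libraries, and NAP1L4 and CARS lie close to 0 in all groups.

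Of 7 partner kinases and pocket proteins, RBL2, which encodes the pocket protein p130, was the one that passed in any comparison: it was lower in KI in DMSO (-0.40 ± 0.08, adjusted p = 0.001502) and rose under BYL719 in KI (0.49 ± 0.08, adjusted p = 0.0005668). The list's medians, between -0.12 and 0.08 over the 5 comparisons, lay near those of all genes tested. CDK4 had log2 differences of 0.07 in KI in DMSO and -0.20 under BYL719 in KI (adjusted p = 0.05647), CDK6 of -0.20 and -0.07, and RB1 of -0.12 and 0.23, none of which passed. Of 10 genes for the turnover of cyclins and inhibitors none passed in KI against parental in DMSO. SKP2, which directs p27 protein to degradation, fell under BYL719 in KI (-0.33 ± 0.04, adjusted p = 8.075e-05), as did its cofactor CKS1B (-0.39 ± 0.12, adjusted p = 0.02728, lost in 4 of 19 alternatives), and RNF123 rose (0.26), 3 of 10 in all, or 30%, against 28.3% of all genes. With BYL719 in both lines, SKP2 (-0.32) and CUL1 (-0.18) were lower in KI, the CUL1 call being lost in 7 of 19 alternatives (adjusted p = 0.05202 to 0.1133).

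Of 10 E2F and DP factors, 3 were higher and 3 lower in KI in DMSO (60%, against 34.3% of all genes), with E2F2 (-0.60), E2F8 (-0.46) and E2F3 (0.38) the largest. Under BYL719 in KI 5 fell and 1 rose (60%, against 28.3% of all genes; median -0.20 against 0.02). E2F3 (-0.43) and E2F5 (-0.38) were among those that fell, and TFDP2, a partner of the E2F factors, was the gene that rose (0.53 ± 0.04). TFDP2 also rose in parental cells (0.21 ± 0.04, adjusted p = 0.02829), a call lost with the replicate block (adjusted p = 0.07189) and in 10 of 19 alternatives in all. The difference of its responses, 0.31 ± 0.06 (adjusted p = 0.01529), lost its call in 7 of 18 alternatives, among them effective-length offsets (0.22, adjusted p = 0.2866).

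Of 18 S phase cyclins and E2F target genes, 5 were lower and 2 higher in KI in DMSO, a share of 38.9% near the 34.3% of all genes. MCM5 (-0.25) and MCM6 (-0.24), subunits of the replicative helicase, were among the lower, and TYMS (0.37), which makes thymidylate, was the largest of the higher. In parental cells 3 passed under BYL719 (16.7%, against 1.42%), CDC25A (-0.30), CDC6 (-0.19) and TOP2A (0.21), all 3 lost with the replicate block (adjusted p = 0.05184, 0.09388 and 0.07084). Under BYL719 in KI 9 fell and 1 rose (55.6%, against 28.3%; median -0.12). CDC25A, a phosphatase that activates CDK2, had the largest of these changes (-0.77 ± 0.06, adjusted p = 2.562e-06), followed by RRM2 (-0.45) and CDC6 (-0.44). With effective-length offsets RRM2 had -0.22 and did not pass (adjusted p = 0.09986). The E cyclins, which bind CDK2, fell in KI as well, CCNE1 by 0.40 and CCNE2 by 0.21 on the log2 scale. The CCNE2 call was lost in 2 of 19 alternatives. With BYL719 in both lines, 9 of the 18 genes were lower in KI than in parental and 2 higher (61.1%, against 22.4% of all genes). CDC25A (-0.46), CCNE1 (-0.33) and TYMS (0.31) were the largest.

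Of 15 listed regulators of the members, 5 were higher and 5 lower in KI in DMSO (66.7%, against 34.3% of all genes). BCL6, a transcriptional repressor, had 24.5 ± 0.8 CPM in parental DMSO and 11.6 ± 1.9 CPM in KI DMSO, and 44.1 ± 0.4 and 36.7 ± 6.0 CPM with BYL719 (mean ± SD, n = 3). Its log2 response was 0.84 ± 0.11 in parental and 1.66 ± 0.12 in KI, the direction seen for CCNG2, and the difference of 0.81 (adjusted p = 0.02) was lost in 8 of 18 alternatives. FOXO4 rose with BYL719 in parental cells (0.33, adjusted p = 0.04426, and 0.08864 with the replicate block) and in KI (0.85), and FOXO1 (0.70) and FOXO3 (0.52) rose in KI. FOXO1 was already higher in KI in DMSO (0.72 ± 0.08), as was ID1, an inhibitor of bHLH factors (1.22 ± 0.18). FOXO4 went the other way and was lower in KI, with means of 13.71 CPM in parental DMSO and 8.735 CPM in KI DMSO. MYC did not pass in any of the 5 comparisons (log2 -0.34 to 0.30). Of 4 relatives outside the members, CDKN2D, CDKN3, CCNG1 and CCNI, none passed under BYL719 in either line, and CCNI was lower in KI (-0.22).

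Across the 12 libraries some members went together and others were opposed, described here without a test because the libraries share 4 conditions. CDKN1A and CDKN1C had Pearson's r of 0.99 on log2 CPM, and CCNG2 and CDKN1B 0.94. In contrast, CCND3 had -0.97 with CDKN1B and -0.95 with CCNG2, and CCND1 had -0.94 and -0.82 with the same 2 genes. Among 13768 genes with a mean of at least 1 CPM, the genes most like CCNG2 were HBP1 (r = 0.9968), KLHL24 (0.9938) and GABARAPL1 (0.9936), and those most like CDKN1B were MAT2B (0.9933), GLUL (0.9886) and TFDP2 (0.9872). For CCND1 they were AEN (0.9986), SLC35C1 (0.9954) and MLKL (0.9923), and for CDKN1A they were CDKN1C (0.9895), LSP1 (0.9891) and SNAI1 (0.9860). CDKN1C was most like KRT16 (0.9902), CCND3 most like LTV1 (0.9867) and CDKN2C most like PLA2G16 (0.9852).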

How the data were processed

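RNA from 12 MCF10A libraries was sequenced as paired-end reads on an Illumina instrument, per the labels' protocols. Per the submitters' processing notes, Trim Galore 0.6.1 with cutadapt, Salmon 1.2.1 and DESeq2 1.28.1 were used and GRCh38 is named for human, with strand handling not given in the sources used here. For each of 207749 transcripts the deposited tables give the authors' estimated counts (expected counts) and TPM, with effective lengths. Estimated counts were summed to gene symbols and rounded; TPM was used to compare genes per length and for transcript shares. Genes that passed edgeR's filterByExpr (21055) were fitted together as 4 group means with TMM scaling and a robust quasi-likelihood test (edgeR 4.0.16, R 4.3.3, 8 residual degrees of freedom); called means a Benjamini-Hochberg adjusted p under 0.05 over all of them, two-sided. Likeness was Pearson's r of log2 (CPM + 0.5). In simulated data for KI against parental in DMSO over 20625 genes, all 100 genes changed by a log2 of 1 were recovered. Of 100 genes changed by 0.5, 99 were recovered, and 9 other genes were called. The simulation gave every gene the same dispersion and held no library set apart from its group. It changed only genes with a mean of at least 1 CPM, so recovery at the spread of the real libraries was not measured.

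All 10 members are named whatever their result, other genes only from fixed lists, with their 3 largest called changes or where a result turns on them; SLC22A18, KCNQ1OT1, CARS, NAP1L4, AC008012.1 and the parental values of PHLDA2 were added after their values were seen. The members and lists were chosen with earlier results of these data known. Alternatives were DESeq2 1.42.0, library totals without TMM, no low-count filter, only the groups compared, effective-length offsets, protein-coding transcripts only, the replicate number as a block and leaving out each library. Same-numbered parental libraries deviated together (correlations 0.167, 0.284 and 0.288), so the numbers pair them in the BYL719 comparison of parental cells, from the data and not from a label. The block that was fitted gave each number an effect shared by both lines. Between the lines, same-numbered libraries had correlations of -0.035, 0.207 and 0.100 in DMSO and -0.003, -0.071 and 0.055 under BYL719. A pairing within parental cells alone was not fitted, and the main fit holds no pairing. With the shared block 213 genes were called in place of 299, and the 2 members stayed 2. The mouse libraries of the series were not used here.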

Additional observations from a re-analysis of the deposited data

Results flagged for a closer look

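The response to BYL719 differed between KI and parental cells for 4 of the 8 tested members, by the interaction term of the edgeR fit. That term passed for 2.88% of all genes tested. The log2 response in KI minus that in parental was 0.87 for CCNG2, 0.39 for CDKN1B, -0.97 for CDKN1C and -0.42 for CDKN1A. The KI BYL719 and KI DMSO libraries did not overlap for any of the 4, which held for 38.2% of all genes tested. Of the listed genes outside the members, the difference was 0.81 for BCL6, 0.52 for FOXO4, 0.31 for TFDP2, -0.25 for CDC6, -0.48 for CDC25A and -2.17 for KCNQ1, the last at levels under 0.5 CPM. Among the alternatives these calls were lost in 8 of 18 for BCL6, 7 of 18 each for FOXO4 and TFDP2, 14 of 18 for CDC6 (with the replicate block among them, adjusted p = 0.08494), 1 of 18 for CDC25A and 1 of 17 for KCNQ1, so the CDC6 difference in particular depends on the fit.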

How the results depend on the processing

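All 8 tested members stayed called for KI against parental in DMSO in every alternative run. For CCND2, being tested already depended on its higher level in the parental groups. Without it, 7 of 7 stayed called. BYL719 in parental cells was the least stable comparison: its 299 genes became 893 with DESeq2, 135 with effective-length offsets and 3486 with only the groups compared (5 members in place of 2), and ranged from 73 to 1973 genes and from 1 to 4 members when each library was left out, with 73 to 132 genes without any 1 of the 6 parental libraries. The interaction's 607 genes became 1428 with DESeq2 and 275 with effective-length offsets, and ranged from 243 to 1874. BYL719 in KI gave 2614 genes in place of 5968 with only the groups compared, and KI against parental under BYL719 ranged from 3564 to 7439. In these fits a group left with 2 libraries was assumed to vary like the others.

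Signs turned only for differences that passed no test: CCND3 between the lines under BYL719 (-0.0021 with library totals without TMM, and -0.0321 to 0.0518 over single libraries left out), CDKN1C in parental BYL719 (-0.1078 to 0.0068 over single libraries left out, the highest without parental DMSO replicate 3), and CCND2 likewise for BYL719 in parental (-0.1262 to 0.1779), in KI (-0.5361 to 1.1037) and for the interaction (-0.5588 to 1.0740). Among the D cyclin values, protein-coding transcripts only gave summed TPM of 104.25, 87.278 and 98.868 in parental DMSO, parental BYL719 and KI BYL719, and shares of 23.549% CCND1 and 76.37% CCND3 in parental BYL719. With the replicate block 7109, 213, 5830, 4514 and 445 genes were called in the 5 comparisons, in the order of the report's first 3, KI against parental under BYL719 and the interaction, and no member's call changed. Outside parental cells the numbers were not paired by the check, although under BYL719 in KI all 6 libraries correlated best with their own number. CCND2 with AC008012.1 summed, with and without KI DMSO replicate 2, was chosen after seeing the data.

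No read depth limits the 7 well-measured members, each with at least 3466 pairs per library. CCND2, CDKN2A and CDKN2B are limited by counting.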
